A study of Mus musculus with 24 samples.

Results

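Atf4 is the transcription factor at the centre of the integrated stress response, and it acts with a small circle of other regulators. The 9 genes described here are Atf4 itself, its relatives Atf5 and Atf3, the partner proteins Ddit3 (also called CHOP), Cebpb, Cebpg and Jdp2, the stress-induced nuclear protein gene Nupr1, and the pseudokinase gene Trib3. They were chosen by name, and they are 9 of the 49568 gene symbols in the count table. All 9 had enough counts to be tested in every comparison.

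The cells were NIH/3T3, an established line of mouse fibroblasts, kept for 24 h at 37 °C either in halofuginone, at 100 nM by the sample labels, or in PBS as vehicle. Halofuginone blocks the proline site of Eprs, the enzyme that loads glutamate and proline onto their tRNAs. Libraries were made from the RNA of whole cells (total RNA) and of 3 pools of a polysome gradient, which sorts mRNAs by how many ribosomes they carry: a ribosome-free pool, light polysomes and heavy polysomes. The 2 treatments and 4 kinds of RNA made 8 groups of 3 libraries, 24 in all. No group carries a genetic change, and all groups come from the same cell line.

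In the integrated stress response, kinases that sense uncharged tRNA and other stresses phosphorylate the initiation factor eIF2α, which lowers protein synthesis in general. Some mRNAs with short reading frames ahead of the coding sequence, Atf4 and Atf5 among them, are then translated more. The Atf4 protein pairs with C/EBP and other bZIP proteins and binds the C/EBP-ATF response element at genes for amino acid synthesis, amino acid transport and tRNA charging. Ddit3 is a C/EBP-related partner tied to the late, death-linked branch of the response. Atf3 and Jdp2 are bZIP proteins that often act as repressors, Cebpb and Cebpg are dimer partners, and Trib3 binds Atf4 and Ddit3 and restrains them.

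The response element can be read directly in the promoters of 4 of the 9 genes. The letters TGATGNAA were searched on both strands (TTNCATCA on the other) in RefSeq promoter windows of GRCm38.p6, each running from 250 bases before to 50 bases after a start site. All 9 genes were matched by symbol, with 12 windows in all, and 4 windows, 1 each of Atf3, Trib3, Nupr1 and Jdp2, held a match. Of all 32851 windows in the table, 3.97% did. The 4 sites are shown because these genes carry the element at the promoter itself. They are printed 5′ to 3′ on the strand of the gene, with the matching letters in capitals.
Atf3: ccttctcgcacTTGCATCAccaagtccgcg
Trib3: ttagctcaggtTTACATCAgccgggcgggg
Nupr1: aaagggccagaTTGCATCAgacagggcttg
Jdp2: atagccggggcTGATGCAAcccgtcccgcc
The Atf3 site lies at chr1:191183425-191183454 on the minus strand, and its capitals begin at position -110 from the start site. The Trib3 site lies at chr2:152344028-152344057 on the minus strand and begins at position 15. The Nupr1 site lies at chr7:126625562-126625591 on the minus strand and begins at position -110, and the Jdp2 site lies at chr12:85599372-85599401 on the plus strand and begins at position -33. In Atf3, Trib3 and Nupr1 the element reads on the strand opposite to the gene, and in Jdp2 on the gene's own strand. The cAMP response element TGACGTCA, found in 1.79% of all windows, and the C/EBP palindrome TTGCGCAA, found in 0.183%, had no match in the 12 windows. These matches describe letters only, and no file here measures binding.

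The leaders of the mRNAs differed as well. In the GENCODE M21 annotation of GRCm38, the Atf4 transcript (Atf4-201, leader of 594 bases) holds 3 upstream ATG codons. They open frames of 36 codons, 3 codons and 59 codons, and the frame of 59 codons runs past the coding start in another frame. The Atf5 transcript (leader of 373 bases) has the same layout at its end, with a frame of 3 codons followed by an overlapping frame of 58 codons. Jdp2 also has an overlapping frame, of 44 codons, behind one of 58 codons. Ddit3 has 2 upstream ATG codons in the same frame, 34 and 31 codons ahead of a shared stop that lies upstream of the coding start. Atf3, Cebpg and Nupr1 have 1 upstream frame each, of 25 codons, 1 codon and 24 codons. Trib3 and Cebpb have none. Of 21475 annotated genes with a complete coding transcript, 52.0% have at least 1 upstream ATG and 17.0% have an overlapping frame.

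The genes lie on 6 chromosomes. Atf4 is on chromosome 15 (80255184 to 80257541, plus strand), Atf3 on chromosome 1 (191170296 to 191218039, minus strand) and Ddit3 on chromosome 10 (127290774 to 127296288, plus strand). Trib3 (152337422 to 152344032, minus strand) and Cebpb (167688915 to 167690418, plus strand) are on chromosome 2. Atf5 (44812256 to 44816658), Cebpg (35046422 to 35056573) and Nupr1 (126623249 to 126630861) are on the minus strand of chromosome 7, and Jdp2 is on chromosome 12 (85599027 to 85639878, plus strand). Several overlap other genes, and the strand setting of the counting is not given in the sources used here. Cebpb shares 908 bases with Tmem189 on the opposite strand, Atf5 shares 571 bases with Nup62 and 272 bases with Il4i1, and Ddit3 shares 68 bases with Mars. Ddit3 also overlaps a second annotated entry of the same name on its own strand, and Cebpg shares 1140 bases with Gm44836, which is annotated as sense intronic. These are overlaps of whole gene spans, introns included, and how far they touch exons was not examined. Where exons are shared, reads cannot be assigned to 1 gene with certainty unless the counting kept the strands apart.

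Depth lay between 10.3 and 24.97 megacounts per library (counts assigned to genes). The headers of the count table part the libraries into a set A of 8, 1 of each group, and a set B of 16. Set A pooled gradient fractions 1 to 2, 3 to 6 and 7 to 11, set B pooled fractions 1 to 5, 6 to 13 and 14 to 21, and the set A headers name 50 nM halofuginone where the labels give 100 nM. Within set B, columns carry tag 2 together with tag 3 (total RNA) or tag 4 (pools). The set A halofuginone library of total RNA stood apart from the other 2 of its group, at a chi-square per gene of 333 and 358.6, and lay nearer to the set A vehicle library, at 24.59. The tag 2 and tag 3 halofuginone libraries differed by only 3.118 per gene, against 21.06 for the next closest pair of 1 group in total RNA, where sampling noise alone gives about 1. In the ribosome-free pool, halofuginone and vehicle libraries of the same tag were closer to each other (26.2 for tag 2, 22.12 for tag 4) than libraries of the same treatment (67.78 and 97.42). Whether tags mark separate cultures is not stated, and p-values therefore measure only how far these libraries spread, which may be technical.

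Of the marker genes, all 10 fibroblast markers were at 5 CPM or more (CPM, counts scaled to library size, with TMM factors within a kind of RNA). In total RNA of set B, 1 of these 10 was called higher and 9 lower in the edgeR test described below. Of all genes tested there, 33.1% were called higher and 36.9% lower. Over all 6 libraries of total RNA, 0 of the 10 markers and 0% of all genes were called. None of 5 epithelial and 6 leukocyte markers reached 5 CPM. Of 5 endothelial markers, Vwf alone reached it, and the summed level of the 5 was 10.5 to 17.1 CPM in vehicle and 26.3 to 85.9 CPM with halofuginone in total RNA, with Pecam1 and Cdh5 under 1 CPM. Adipocyte markers summed to 134 to 282 CPM in vehicle and 89.3 to 168 CPM with halofuginone. The part of these markers in the results below was not tested. As bulk RNA, the data cannot tell more cells with a transcript from more transcript per cell, and each library is scaled to its own total.

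In untreated cells, Atf4 was the most abundant of the 9 transcripts per length. Length here is that of all annotated exons of a gene merged. For Ddit3 (1713 bases) and Nupr1 (2514 bases) this far exceeds the coding transcripts whose leaders are described above (890 and 829 bases). The orders and overlaps below hold for this length only, and others were not tried. In vehicle total RNA it stood at 171.5 ± 39.8 CPM per kb of exon (SD, n = 3), followed by Atf5 at 84.5 ± 26.6, Cebpb at 52.4 ± 3.48 and Ddit3 at 38.2 ± 11.8 CPM per kb. Jdp2 (13.5 ± 3.66), Nupr1 (11.6 ± 3.61) and Cebpg (9.45 ± 1.06 CPM per kb) came next, and Trib3 (6.49 ± 0.390) and Atf3 (3.72 ± 0.694 CPM per kb) were the least abundant. The ranges of neighbours in this order did not overlap, except those of Cebpb and Ddit3, of Jdp2 and Nupr1, and of Nupr1 and Cebpg. With halofuginone the means at the top of the order closed up. Atf5 averaged 257 ± 109, Atf4 238 ± 32.5 and Ddit3 223 ± 152 CPM per kb, with overlapping ranges. These means join libraries of different order. The set A library kept the vehicle order of these genes, with Atf4 at 201.1, Atf5 at 132.3 and Ddit3 at 48.11 CPM per kb. In each set B library Atf5 and Ddit3 stood above Atf4. The highest values there were 329.9 (Atf5), 319.7 (Ddit3) and 262.7 CPM per kb (Atf4). The 9 genes together took 0.0731% to 0.250% of the counts in total RNA and up to 0.503% in light polysomes.

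**Figure D1:**
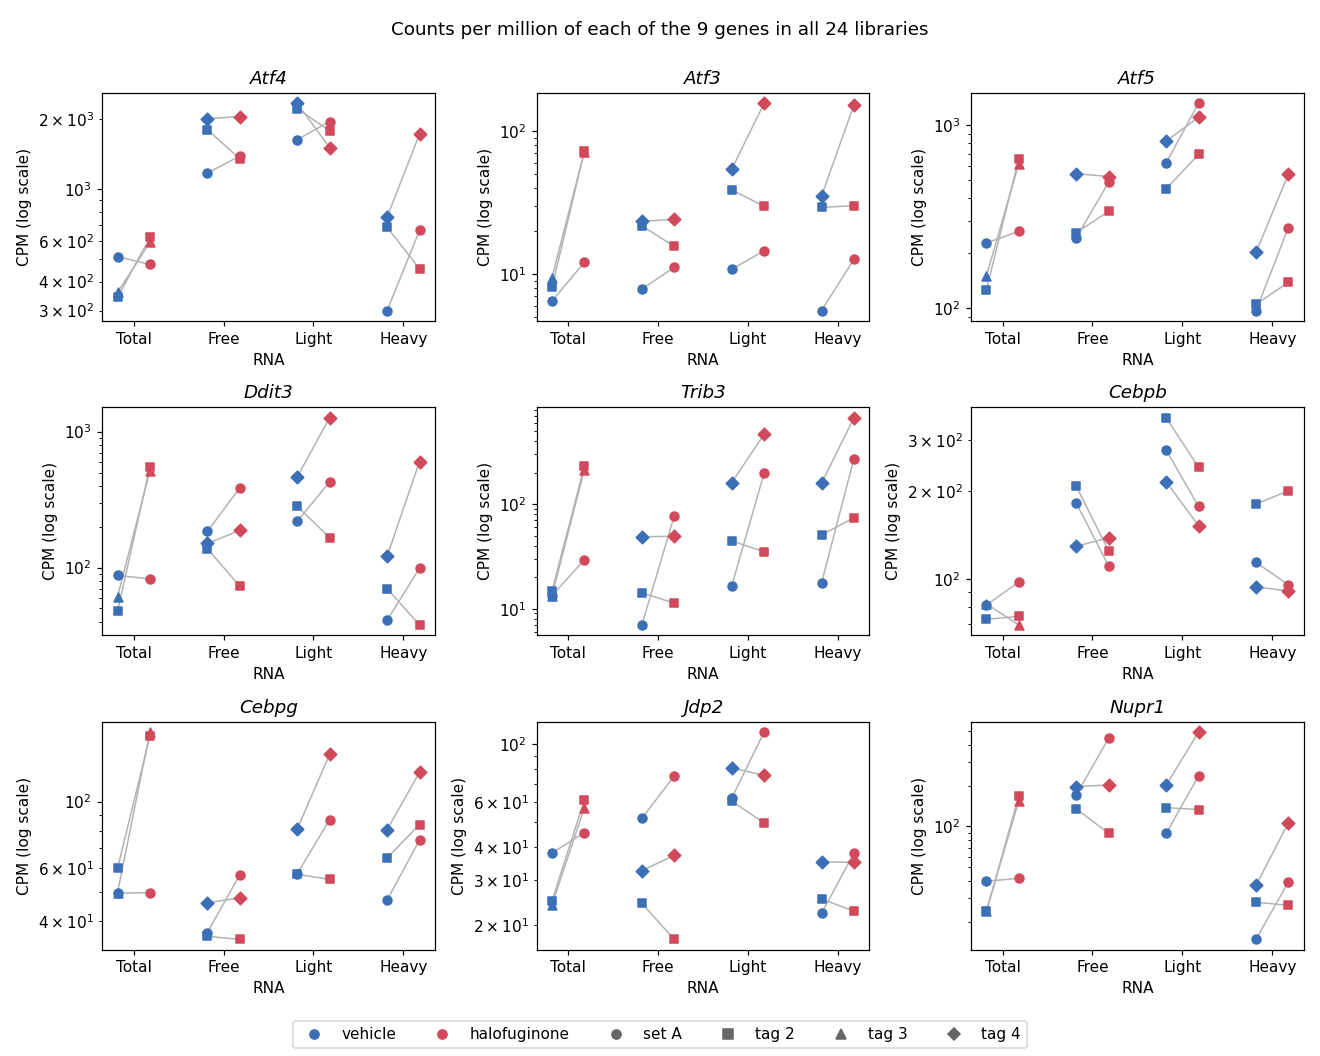
Level of each of the 9 genes in CPM (log axis), with vehicle libraries in blue and halofuginone libraries in red for total RNA, the ribosome-free pool, light polysomes and heavy polysomes. Circles are set A, squares, triangles and diamonds are tags 2, 3 and 4 of set B, and grey lines join libraries of the same tag: in total RNA the set A circles of Trib3 stand at 13.3 and 29.4 CPM and the halofuginone square and triangle at 231 and 215 CPM.

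The comparison of total RNA asks which of these regulators changed in transcript level under halofuginone. Trib3 showed the largest difference of the 9. It stood at 13.3, 14.8 and 13.3 CPM in the vehicle libraries (set A, tag 2 and tag 3, the order used throughout) and at 29.4, 231 and 215 CPM with halofuginone. All halofuginone libraries were above all vehicle libraries, and those of set B were far above that of set A. Over all 6 libraries its log2 fold change was 3.52 ± 0.75 (SE), with an adjusted p of 0.267 in edgeR's quasi-likelihood test (Benjamini-Hochberg over all genes tested). In set B alone, 2 libraries against 2, it was 3.94 ± 0.09 with an adjusted p of 1.3e-07.

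Ddit3 and Atf3 followed. Ddit3 stood at 87.5, 47.8 and 61.0 CPM in vehicle and at 82.4, 548 and 514 CPM with halofuginone. Its set A halofuginone library lay within the vehicle range, so the groups overlapped, while the other 2 were above every vehicle library. Its log2 fold change was 2.54 ± 0.70 over all libraries and 3.24 ± 0.12 in set B. Atf3, low in vehicle at 6.48, 8.08 and 9.47 CPM, stood at 12.1, 72.1 and 71.8 CPM with halofuginone. Its groups did not overlap, and its log2 fold change was 2.70 ± 0.66 over all libraries and 3.00 ± 0.10 in set B. Nupr1 stood at 39.5, 23.7 and 23.9 CPM in vehicle and 41.6, 168 and 154 CPM with halofuginone, so that its groups were only just separated. Its log2 fold change was 2.06 ± 0.55, and 2.71 ± 0.08 in set B.

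Atf4 itself had a smaller log2 fold change than the other members except Cebpb. It stood at 512, 342 and 359 CPM in vehicle and at 474, 619 and 590 CPM with halofuginone. The set A pair ran opposite to the other pairs and the groups overlapped. Its log2 fold change was 0.47 ± 0.22 with an adjusted p of 0.310 in edgeR over all libraries, and 0.74 ± 0.07 with an adjusted p of 5.13e-05 in set B, a fold of 1.67. Its paralog Atf5 stood at 228, 127 and 151 CPM in vehicle and at 264, 657 and 618 CPM with halofuginone, with no overlap and a log2 fold change of 1.61 ± 0.41 (2.16 ± 0.10 in set B).

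Of the dimer partners, Cebpg and Jdp2 rose in set B and Cebpb did not pass the test there. Cebpg stood at 49.6, 60.0 and 49.8 CPM in vehicle and 49.7, 165 and 170.3 CPM with halofuginone, flat in set A and higher in both pairs of set B. Jdp2 stood at 38.0, 24.9 and 24.0 CPM against 45.7, 61.0 and 56.9 CPM, with no overlap. Their log2 fold changes were 1.27 ± 0.46 and 0.91 ± 0.24 over all libraries, and 1.56 ± 0.10 and 1.22 ± 0.08 in set B. Cebpb stood at 81.5, 72.8 and 82.2 CPM in vehicle and 97.8, 74.6 and 69.7 CPM with halofuginone. These ranges overlap almost entirely, and its log2 fold change was 0.03 ± 0.18 over all libraries (edgeR adjusted p = 0.918) and -0.15 ± 0.09 in set B (edgeR adjusted p = 0.155). That outcome turned on 1 library: without the tag 2 vehicle library of set B, Cebpb was called lower at -0.24 (edgeR adjusted p = 0.000927).

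Over all 6 libraries of total RNA edgeR called 0 of the 9 genes, where 0% of the 13020 genes tested were called. At an unadjusted p under 0.05 it had 2292 genes, and DESeq2 called 450 genes, Trib3, Atf3, Ddit3, Nupr1 and Atf5 among them. The halofuginone libraries were above all vehicle libraries for 5 of the 9 genes (Atf3, Atf5, Trib3, Jdp2 and Nupr1), and for 12.2% of all genes tested. In set B, 8 of the 9 genes rose and 0 fell, where 33.1% of 13334 genes were called higher and 70.0% in either direction. The median log2 fold change of the 9 was 2.16, against -0.02 over all genes tested. Leaving out the set A halofuginone library alone raised the count over all libraries from 0 to 8246 genes called. The 2 set B halofuginone libraries are the pair with the small difference described above, which bears on the small standard errors of set B.

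**Figure D2:**
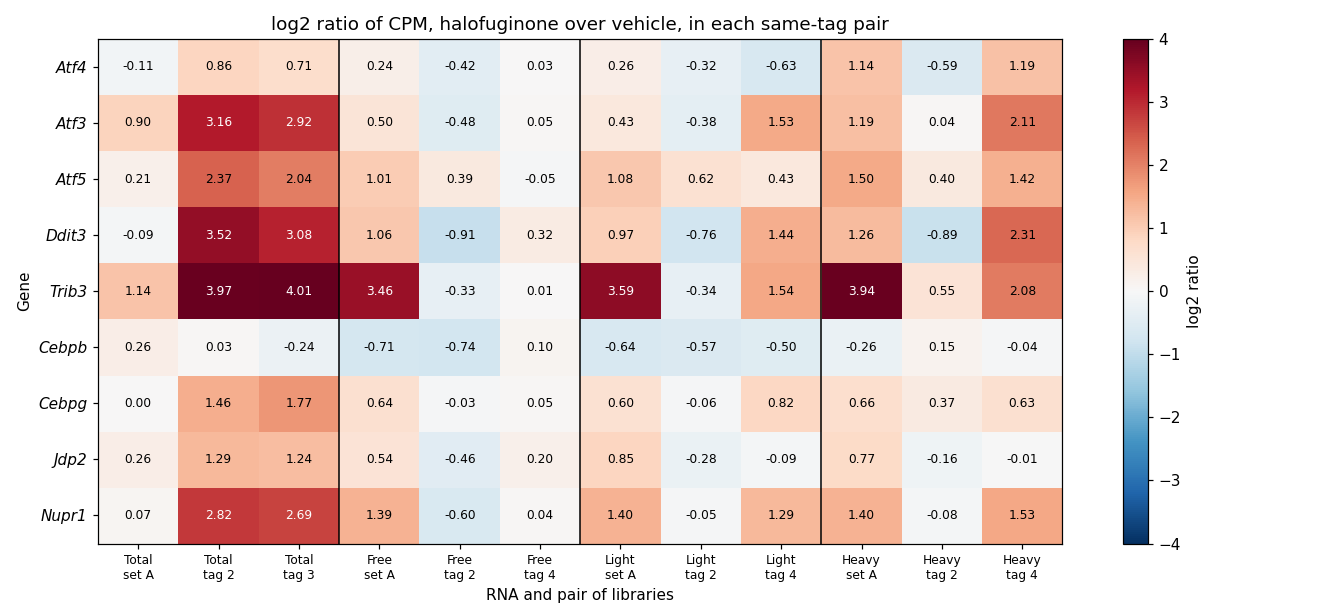
The log2 ratio of CPM, halofuginone over vehicle, for each of the 9 genes (rows) in each pair of libraries with the same header tag (columns, grouped by kind of RNA), coloured from blue (lower) to red (higher). Trib3 reads 3.97 and 4.01 in the set B pairs of total RNA and 3.46, 3.59 and 3.94 in the set A pools, but 1.14 in set A total RNA and -0.33 and -0.34 in the tag 2 ribosome-free and light pools.

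In the gradient pools the ratios differed widely between pairs of libraries. Trib3 in heavy polysomes stood at 17.8, 50.8 and 159 CPM in vehicle (set A, tag 2 and tag 4) and at 273, 74.3 and 674 CPM with halofuginone. In light polysomes it stood at 16.5, 44.6 and 161 CPM against 198, 35.1 and 468 CPM, and in the ribosome-free pool at 6.996, 14.2 and 48.9 CPM against 77.2, 11.3 and 49.3 CPM. The set A halofuginone libraries were thus 11.03-fold to 15.4-fold above their vehicle partners in all 3 pools, whereas in total RNA set A gave 2.21-fold. Tag 2 showed the reverse, with 15.6-fold in total RNA and 0.788-fold to 1.46-fold in the pools. Whether a total RNA library and a pool of the same tag came from the same culture is not stated.

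The other members followed the same division of libraries. In the set A pairs, 8 of the 9 genes had higher CPM with halofuginone in each pool, with Cebpb the exception each time. Of all genes at 5 CPM or more, 51.1% (ribosome-free), 51.8% (light) and 48.0% (heavy) were higher in those pairs. In the tag 2 pairs only Atf5 was higher in the ribosome-free and the light pool, where 54.1% and 46.7% of all genes were. In the tag 2 heavy pair 5 of the 9 genes were higher (Atf3, Atf5, Trib3, Cebpb and Cebpg), where 47.5% of all genes were. In tag 4 the ribosome-free pair was nearly flat, at log2 ratios from -0.05 (Atf5) to 0.32 (Ddit3), while 6 of the 9 genes in heavy polysomes and 4 in light polysomes were more than 2-fold higher, as 7.81% and 8.28% of all genes at 5 CPM or more were. In the set A heavy pair 6 of the 9 genes were more than 2-fold higher, where 0.757% of all genes were.

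Ddit3 shows how wide the spread was. In heavy polysomes it stood at 41.0, 69.8 and 121 CPM in vehicle and 98.5, 37.8 and 602 CPM with halofuginone, higher in 2 pairs and lower in 1. In light polysomes it stood at 218, 281 and 465 CPM against 427, 166 and 1265 CPM, the same order. Atf4 in heavy polysomes stood at 300.3, 685 and 759 CPM in vehicle and 664, 454 and 1727 CPM with halofuginone, again lower in tag 2 only. In light polysomes it stood at 1635, 2222 and 2342 CPM against 1956, 1783 and 1511 CPM, lower in both set B pairs. Cebpb in light polysomes was the 1 case besides Atf5 in which all 3 light pairs ran one way: it stood at 277, 358 and 216 CPM in vehicle and 178, 242 and 153 CPM with halofuginone, and the groups still overlapped.

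No member passed the test in any pool. In heavy polysomes the log2 fold changes were 2.17 ± 0.93 for Trib3, 1.67 ± 0.92 for Ddit3, 1.48 ± 0.94 for Atf3, 1.24 ± 0.52 for Atf5, 1.12 ± 0.55 for Nupr1, 0.71 ± 0.55 for Atf4 and between -0.01 and 0.56 for Cebpb, Jdp2 and Cebpg. In light polysomes they ran from -0.57 ± 0.31 (Cebpb) to 1.66 ± 0.99 (Trib3), with Atf4 at -0.24 ± 0.28, and in the ribosome-free pool from -0.47 ± 0.34 (Cebpb) to 0.98 ± 0.87 (Trib3). In each pool edgeR called 0 of the 9 genes and 0% of all genes tested (12222, 12632 and 11960 genes). Unadjusted p was under 0.05 for 754, 540 and 30 genes, and DESeq2 called 79, 39 and 1. The halofuginone libraries were above all vehicle libraries for 0 of the 9 genes in each pool, and for 5.40%, 4.43% and 1.15% of all genes. Same-tag libraries deviated together in the pools, and with the tag as a replicate block edgeR called 2 genes in heavy polysomes, 3 in light polysomes and 15 in the ribosome-free pool, none of them a member.

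In set B alone the heavy pool gave log2 fold changes of 1.83 for Trib3, 1.74 for Ddit3 and 0.60 for Atf4, with an edgeR adjusted p of at least 0.949 for all 9 genes. Leaving out the tag 4 halofuginone library of heavy polysomes brought Ddit3 to -0.17, Atf3 to -0.12 and Atf4 to -0.04. Over all single libraries left out, Trib3 ranged from 1.21 to 3.33 in heavy polysomes, from 0.67 to 2.94 in light polysomes and from 0.37 to 2.12 in the ribosome-free pool.

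Whether the 9 transcripts gained more in heavy polysomes than in the cell as a whole was tested as a difference of differences. The log2 effect in heavy polysomes minus that in total RNA ran from -1.33 ± 1.26 (Trib3) to 0.26 ± 0.66 (Atf4), with 8 of 9 values below 0, where 48.3% of all genes were above 0. Atf4, the exception, turned to -0.17 in set B and to -0.52 without the tag 4 halofuginone library of heavy polysomes. edgeR called 0 of the 9 genes and 0% of 13459 genes, with 128 at an unadjusted p under 0.05 and 1 called by DESeq2. Measured against the ribosome-free pool in place of total RNA, all 9 differences were above 0, from 0.03 ± 0.67 (Jdp2) and 0.85 ± 0.73 (Atf4) to 1.63 ± 1.18 (Atf3), as were 58.2% of all genes. Jdp2 turned to -0.016 with median-of-ratios factors, and Trib3, at 1.29 ± 1.37, ranged from 0.013 to 2.41 when single libraries were left out. Here too 0 of the 9 and 0% of 13053 genes were called, with 53 genes at an unadjusted p under 0.05 and 0 called by DESeq2.

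The contrast of heavy polysomes with the ribosome-free pool asks where each transcript sits in the gradient of untreated cells. CPM were scaled within each pool, whereas the fit scaled both pools together, so CPM of different pools are not on a common scale. Nupr1 was the member most shifted to the ribosome-free pool: it stood at 171, 135 and 197 CPM there and at 14.8, 27.7 and 36.9 CPM in heavy polysomes, with no overlap on these separate scales. Its log2 difference, heavy over ribosome-free, was -3.47 ± 0.45 with an adjusted p of 0.00186 in edgeR. Atf4 stood at 1174, 1806 and 2012 CPM in the ribosome-free pool and at the 300.3 to 759 CPM given above in heavy polysomes, again with no overlap on these scales. Its difference was -2.31 ± 0.49 (edgeR adjusted p = 0.00917), and that of Atf5 was -2.17 ± 0.49 (edgeR adjusted p = 0.0119).

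Ddit3 (-1.84 ± 0.46), Cebpb (-1.23 ± 0.40) and Jdp2 (-1.22 ± 0.39) were also lower in heavy polysomes, with edgeR adjusted p of 0.0171, 0.0465 and 0.0443. Atf3 (-0.38 ± 0.64), Cebpg (-0.10 ± 0.33) and Trib3 (0.91 ± 0.84) did not pass. In vehicle, then, 6 of the 9 genes were lower in heavy polysomes and 0 were higher, where 17.7% of 12225 genes tested were lower, 11.9% higher and 29.6% called in all. With no filter on low counts, Trib3 was called higher at 1.07 (edgeR adjusted p = 0.0483), and Cebpb (0.0977) and Jdp2 (0.0668) were not called. The calls of Atf4 and Nupr1 held when each of the 6 libraries was left out in turn. Those of Atf5 and Ddit3 were lost without the set A or the tag 2 heavy library, and those of Cebpb and Jdp2 held in 1 of the 6 cases each.

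In set B alone the 4 largest vehicle differences were -3.13 (Nupr1), -2.17 (Atf4), -2.16 (Atf5) and -1.36 (Ddit3), all still called, while Cebpb (edgeR adjusted p = 0.0672) and Jdp2 (0.0937) were not. With both tag 2 libraries left out, only Nupr1 of the 9 genes was still called, and Atf4, at -2.40, had an edgeR adjusted p of 0.0934. Mitochondrially encoded RNA moved with the same contrast, at 8.686% to 34.87% of counts in ribosome-free pools and 0.2764% to 0.7463% in heavy pools, and its part in these differences was not tested.

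With halofuginone the values of this contrast lay higher than in vehicle for all 9 genes, by amounts that did not pass a test. Nupr1 had a difference of -2.82 ± 0.71 and was the 1 member called (edgeR adjusted p = 0.0206), where 12.6% of 12238 genes were called lower, 8.47% higher and 21.1% in all. Its libraries stood at 446, 89.0 and 202 CPM in the ribosome-free pool and 39.1, 26.3 and 107 CPM in heavy polysomes. These ranges overlapped, but each pool was scaled on its own, so whether they overlap on a common scale was not tested. Atf4 was at -1.47 ± 0.55 (edgeR adjusted p = 0.0802), Atf5 at -1.22 ± 0.53, Trib3 at 2.17 ± 0.83 (edgeR adjusted p = 0.0839) and Atf3 at 1.23 ± 0.76. With the tag as a replicate block, which the joint deviations of same-tag libraries allow, Atf4 at -1.69 (edgeR adjusted p = 0.0130), Atf5 at -1.42 (0.0331) and Trib3 at 2.04 (0.00213) were called as well. DESeq2 called Atf4 (adjusted p = 0.0315) and Trib3 (0.0140) too, and with no filter edgeR called Trib3 (adjusted p = 0.000173) and Atf3 (0.0246). In set B alone none of the 9 was called, and Nupr1 had -1.84 (edgeR adjusted p = 0.120). The Nupr1 call was also lost without the tag 2 libraries of both pools (edgeR adjusted p = 0.0507) and without the set A (0.0951) or the tag 2 (0.0613) halofuginone library of heavy polysomes. Without the tag 4 library there Atf4 was called (-2.22, edgeR adjusted p = 0.0403), and without the tag 2 library Trib3 was (2.69, edgeR adjusted p = 0.0412). The difference between the treatments in this contrast is the difference of differences against the ribosome-free pool given above, in which no gene passed.

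**Figure D3:**
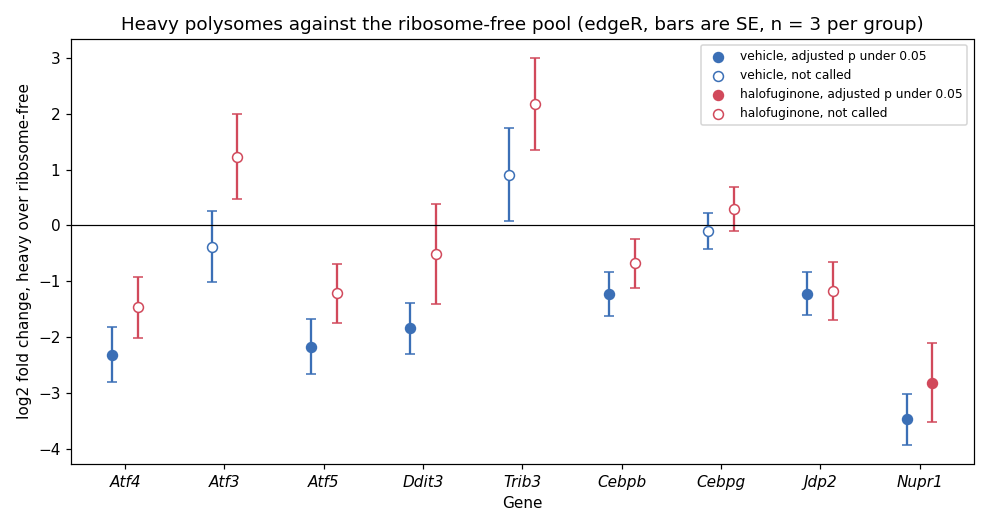
The log2 fold change of heavy polysomes over the ribosome-free pool (y axis) for each of the 9 genes (x axis), in vehicle (blue) and with halofuginone (red), n = 3 libraries per group and bars of 1 SE. Filled points passed edgeR at an adjusted p under 0.05: 6 vehicle points, from Nupr1 at -3.47 to Jdp2 at -1.22, and the halofuginone point of Nupr1 at -2.82.

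Genes around the 9 give the setting of their change in total RNA, where set B is used because edgeR made no call over all 6 libraries. These lists were chosen with earlier results of these data known. Of 45 known ATF4 target genes, 43 were tested in set B, and 40 rose and 0 fell, with a median log2 fold change of 1.67. Among all genes tested in set B, 33.1% were called higher and 36.9% lower. Slc7a5, an amino acid transporter, had 3.06 ± 0.07, Aldh1l2, a mitochondrial folate enzyme, 3.08 ± 0.08, and Slc6a9, a glycine transporter, 2.87 ± 0.07. Slc7a5 stood at 105 CPM in the set A vehicle library and at 117, 596 and 588 CPM with halofuginone, so that the set A library again stood close to vehicle. Gdf15 had 0 counts in both set B vehicle libraries and 0.589 and 1.03 CPM with halofuginone, at least 11.3-fold higher against a floor of 3 counts over the group, and with it at that bound the median of the list was again 1.67.

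All 10 CHOP (Ddit3) target genes were called in set B, 8 higher and 2 lower, with a median of 1.80. Of all genes tested there, 33.1% were called higher and 36.9% lower, 70.0% in all. Car6, a carbonic anhydrase, stood at a mean of 0.649 CPM in vehicle, with 34 counts in the set B vehicle libraries. With halofuginone it stood at 14.3, 197 and 184 CPM, a log2 fold change of 7.82 ± 0.12 in set B. Gadd45a, a growth-arrest gene, had 3.44 ± 0.08, and Ppp1r15a, the phosphatase subunit that reverses eIF2α phosphorylation, had 3.67 ± 0.10. Ppp1r15a also belongs to the eIF2α list below, and Chac1 to both the ATF4 and the CHOP list. The 2 that fell were Dusp1 (-1.25 ± 0.10), a MAP kinase phosphatase, and Bcl2l11 (-0.73 ± 0.13), a pro-apoptotic factor. Bcl2l11 is known as a gene that CHOP induces.

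Transcripts of the enzymes that write and erase eIF2α phosphorylation moved in both directions, as genes at large did in set B. Of 14 genes for eIF2α kinases, their regulators, phosphatase subunits and eIF2α itself, 7 rose and 5 fell, with a median of 0.18. Of all genes tested in set B, 33.1% were called higher and 36.9% lower, so such a split is not particular to this list. Ppp1r15a rose most, followed by Eif2s1 (1.57 ± 0.09), which encodes eIF2α, and Ppp1r15b (1.08 ± 0.08), the constitutive phosphatase subunit. The kinase genes Eif2ak2 (PKR, -1.83 ± 0.11), Eif2ak4 (GCN2, -1.09 ± 0.08) and Eif2ak3 (PERK, -0.87 ± 0.08) fell. Of the 3 relatives of Trib3, Stk40 rose (1.52 ± 0.08) while Trib2 (-3.14 ± 0.09) and Trib1 (-1.38 ± 0.09) fell.

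Other bZIP genes, 36 tested of 45 in the table, split nearly evenly, as genes at large did: 15 rose and 14 fell, with a median of 0.05. Atf6, the membrane-bound factor of the unfolded protein response, had 1.45 ± 0.07, Fosl1 1.38 ± 0.08 and Mafk 1.32 ± 0.08. Cebpd, a C/EBP relative, had -3.09 ± 0.08, the AP-1 subunit Jun -1.96 ± 0.08 and Creb3l2 -1.42 ± 0.08. Cebpd stood at 137 CPM in the set A vehicle library and at 162, 26.3 and 24.4 CPM with halofuginone. All counts of these lists stand against the 33.1% of genes called higher and the 36.9% called lower in set B, and over all 6 libraries edgeR called 0 genes of any list.

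**Figure D4:**
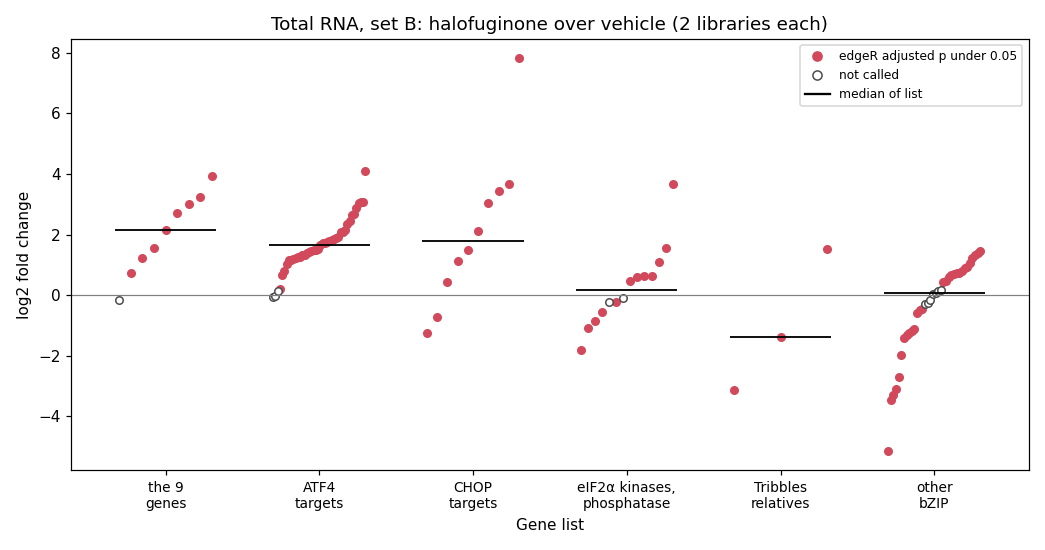
The log2 fold change in total RNA of set B, halofuginone over vehicle with 2 libraries each (y axis), of every tested gene in the 9 genes and 5 lists (x axis), filled where edgeR's adjusted p was under 0.05, with a black line at each median. The medians are 2.16, 1.67, 1.80, 0.18, -1.38 and 0.05 from left to right, and Gdf15, with 0 vehicle counts in set B, is not drawn.

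The members also varied together across libraries. After centring log2 CPM within each kind of RNA, the closest pair over the 24 libraries was Ddit3 and Nupr1, at a Pearson correlation of 0.958, and Trib3 correlated with Nupr1 at 0.925 and with Atf5 and Cebpg at 0.901 each. Atf4 was less tied to the rest, from 0.329 (Jdp2) to 0.680 (Atf5) leaving Cebpb aside, and Cebpb correlated negatively with all 8 others, from -0.187 to -0.611. Among 9702 genes at 5 CPM or more, those most like Ddit3 were Ppp1r15a (0.959), Nupr1 (0.958), Slc3a2 (0.940), Ears2 (0.939) and Tfap4 (0.938). Those most like Trib3 were Acot2 (0.965), Gpt2 (0.962), Gtpbp2 (0.949), Slc6a9 (0.947) and Trim46 (0.944). Those most like Atf4 reached lower values: Clk3 (0.771), Slc26a11 (0.753), BC037034 (0.748), Supv3l1 (0.735) and E4f1 (0.734). The points share treatment, set and tag, so these correlations describe the 24 libraries only.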

How the data were processed

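The authors deposited 1 table of whole-number counts per gene symbol for the 24 libraries, made from poly(A)-selected TruSeq Stranded mRNA libraries, per the labels' protocols. The submitters' processing notes name STAR 2.5.2b, Trimmomatic 0.36, featureCounts, Subread 1.5.0p3 and the build GRCm38.p5. What each did, the strand setting and how multiply matching reads were counted is not given in the sources used here. Columns were matched to the 8 groups by their headers, not to single samples, and 0 columns belonged to other samples. Which dose set A received could not be settled.

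The 9 genes, all lists, the naming rule and the set B comparison were chosen with earlier results of these data known. The rule named all 9 genes in every comparison, the 5 genes most correlated with each of Atf4, Ddit3 and Trib3, and up to 3 genes per list and direction with the smallest p in set B. All fits used edgeR 4.0.16 in R 4.3.3 on all genes that passed its default filter, with TMM scaling, the quasi-likelihood test and Benjamini-Hochberg adjustment at 0.05. Each kind of RNA was fitted alone (6 libraries, 4 in set B), gradient contrasts on 6 libraries and differences of differences on 12. The procedure was tested on simulated total RNA counts. These were drawn as independent libraries without the division by set or tag, so the simulation does not cover that division. Alternatives were DESeq2 1.42.0, median-of-ratios factors, no filter, a filter of 50 counts, a tag block, set B alone, each library left out and, chosen after seeing the data, both tag 2 libraries of a pool left out.

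Same-tag libraries of the 2 treatments were compared by correlating, over genes, how each deviated from its group mean. In total RNA it was 0.387, 0.434 and -0.0032 for set A, tag 2 and tag 3. The set A vehicle library gave -0.346 and -0.418 with the halofuginone libraries of tags 2 and 3, but the tag 2 vehicle library gave 0.499 with tag 3. The tags thus did not pair those libraries throughout. In the pools the same-tag correlation was 0.830 to 0.935 (ribosome-free), 0.407 to 0.815 (light) and 0.358 to 0.781 (heavy). Between ribosome-free and heavy pools it was 0.247 to 0.457 in vehicle and 0.201 to 0.392 with halofuginone. The block is therefore given beside pool results where it changes a call or a count.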

Additional observations from a re-analysis of the deposited data

How the results depend on the processing

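Over all alternatives, 990 of 1116 values of the 9 genes kept direction and call, 32 gained a call, 27 lost one and 67 changed sign, the last all uncalled before. The main fits called 8 of the 9 genes in set B, 6 in the vehicle gradient contrast and 1 in the halofuginone one. Most values that kept their call were therefore uncalled in both settings, and the lost calls all fell in the gradient contrasts.

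The number of genes called changed with the setting. In total RNA it went from 0 to 450 with DESeq2 and 9337 in set B, and when single libraries were left out it ranged from 0 to 8246, the latter without the set A halofuginone library and 0 without any other. In the ribosome-free pool it was 1 with DESeq2 and 15 with the replicate block. In light polysomes it was 39 with DESeq2, 47 with no filter and 3 with the replicate block, and in heavy polysomes 79, 105 and 2. Heavy minus total gave 1 with DESeq2, 1 with no filter and 0 to 3 without single libraries. Heavy minus ribosome-free gave 7 with no filter and 1 in set B. The vehicle gradient contrast gave 3616, and 5524 in set B, 784 without tag 2 and 1897 to 5844 without single libraries (5844 without the set A ribosome-free library, and 1897, 2313 and 2157 without the set A, tag 2 and tag 4 heavy libraries). The halofuginone one gave 2578, and 1383 in set B, 1168 without tag 2 and 688 to 3600 without single libraries (1292 without the tag 4 ribosome-free library, 688 and 1096 without the set A and tag 4 heavy libraries). With the replicate block they were 4508 and 3705. In total RNA the block called 0 genes, as without it, and no other call of the 9 genes than those given beside the results changed with it.

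Signs turned for values near 0 or resting on 1 library, and the cause was not tested. In set B the sign turned for Cebpb in total RNA (-0.15), Ddit3 (-0.15), Trib3 (-0.063), Jdp2 (-0.054) and Nupr1 (-0.19) in the ribosome-free pool, Jdp2 in light (-0.16) and heavy (-0.067) and Cebpb in heavy polysomes (0.087). It also turned for heavy minus total of Atf4 (-0.17) and Cebpb (0.20), the vehicle gradient contrast of Cebpg (0.063) and the halofuginone one of Ddit3 (0.59). Without tag 2, Atf4 (0.11) and Atf3 (0.17) turned in the ribosome-free pool, and with the replicate block Atf3 there (0.017). With no filter, Cebpb in heavy polysomes (0.0011) and Cebpg in the vehicle contrast (0.095) turned, and with the filter of 50 counts Cebpb in heavy polysomes (9e-04). Jdp2 in heavy minus ribosome-free turned with DESeq2 (-0.017) and with median-of-ratios factors (-0.016).

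Without single libraries, values ranged in total RNA from -0.14 to 0.13 (Cebpb). In the ribosome-free pool they ranged from -0.29 to 0.11 (Atf4), -0.41 to 0.21 (Atf3), -0.28 to 0.86 (Ddit3), -0.40 to 0.63 (Jdp2) and -0.21 to 0.95 (Nupr1). In light polysomes they ranged from -0.11 to 0.47 (Jdp2), -0.62 to 1.43 (Atf3) and -0.10 to 1.41 (Ddit3). In heavy polysomes they ranged from -0.47 to 0.31 (Cebpb), -0.044 to 1.04 (Atf4), -0.12 to 1.99 (Atf3) and -0.17 to 2.18 (Ddit3). Heavy minus total ranged from -0.49 to 0.32 (Cebpb), -0.52 to 0.59 (Atf4) and -0.98 to 0.067 (Atf5). Heavy minus ribosome-free ranged from -0.46 to 0.62 (Jdp2), -0.015 to 2.11 (Atf3), -0.57 to 1.96 (Ddit3) and -0.19 to 1.33 (Nupr1). The vehicle gradient contrast ranged from -0.22 to 0.14 (Cebpg), -0.75 to 0.12 (Atf3) and -0.18 to 2.07 (Trib3), and the halofuginone one from -2.36 to 0.23 (Ddit3) and -0.38 to 1.75 (Atf3). Of values that kept their sign, Nupr1 in heavy polysomes ranged from 0.32 to 1.47, and heavy minus total from -2.32 to -0.19 (Trib3), -2.82 to -0.71 (Atf3) and -2.72 to -0.34 (Ddit3). Depth limits the low genes most: the lowest count of Atf3 was 118, in the set A vehicle library of total RNA, and that of Trib3 was 113, in the set A vehicle ribosome-free pool.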
